A study of Mus musculus with 2 samples.

Results

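The cyclic AMP (cAMP) cascade and the phosphodiesterases that end its signal were described here as a set of 55 genes, out of 43346 Ensembl genes in the tables. Members were taken from a list of genes for G proteins, adenylyl cyclases, protein kinase A (PKA), anchoring proteins, CREB factors and phosphodiesterases, chosen by name with no threshold on a measured value, although earlier results of these data were known. Of the 55, 54 were matched to the tables by gene ID and Pde2a through its transcripts. The material was the adrenal gland of a female C57BL/6J mouse, adult, aged 10 weeks, with no treatment named in the labels. Polyadenylated RNA was sequenced as 2 libraries, which the labels give as technical replicates of 1 biological sample, with replicate 2 prepared later than replicate 1. No comparison between conditions or animals was possible, and every error below covers 2 libraries of 1 sample.

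In a steroid-making cell of the adrenal cortex, the hormone ACTH binds a receptor that couples to the stimulatory G protein Gs. Gs activates adenylyl cyclase, cAMP releases the catalytic subunits of PKA from its regulatory subunits, and PKA phosphorylates CREB and other proteins that drive steroid synthesis. Phosphodiesterases hydrolyse cAMP and set how long the signal lasts, and inherited changes in several of these genes are a known cause of adrenal overgrowth and cortisol excess. Chromaffin cells of the medulla use the same cascade, so a level in whole gland is a sum over cell types. In such bulk RNA, fewer cells of a type and less RNA per cell cannot be told apart.

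Replicate 1 held 28267651 rounded counts and replicate 2 held 17376660, of which 53.1% and 15.3% came from mitochondrial genes and their nuclear copies. The members took 99976 and 104469 counts. Levels are given as deposited TPM, a count per transcript length scaled to 1 fixed sum per library, and the part of that sum outside mitochondrial genes was 17.5% in replicate 1 and 61.6% in replicate 2. TPM was lower in replicate 1 for 53 of the 55 members, and ratios between libraries were taken from counts after TMM scaling instead. Steroidogenic markers of the cortex were detected at 1 TPM or more in both libraries for 7 of 7 genes and chromaffin markers of the medulla for 6 of 7, the exception being Pnmt, with counts of 0 and 4291. The summed TPM of 5 skeletal muscle markers was 11.1 and 322, and that of 5 erythroid markers was 49.3 and 2973, all 10 called higher in replicate 2 by count ratio and 6 of them with a trend over GC content removed. That of 6 adipocyte markers was 463 and 2412 (2 called higher, 4 with the trend removed), that of 6 macrophage markers 4.87 and 184 (5, then 3), and that of 4 smooth muscle markers 6.00 and 136 (4, then 2). Over all genes tested, 36.5% were called higher in replicate 2, and 11.5% with that trend removed. Of 4 kidney markers, 3 had a count of 0 in both libraries. Their part in the ratios of the members was not tested.

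At least 1 TPM in both libraries was reached by 37 of 55 members, against 9106 of the 43346 genes. A further 11 members reached 1 TPM in replicate 2 only, and 7 reached it in neither: Adcy2, Adcy8, Pkib, Akap5, Pde1c, Pde4c and Pde11a. The median member stood at 4.16 TPM in replicate 1 and 15.5 TPM in replicate 2. Gnas, the gene of the Gs alpha subunit, was the most abundant member in both libraries, followed by Prkar2b, Prkar1a and Rapgef4 in replicate 1 and by Prkar1a, Rapgef4, Gnb1 and Prkar2b in replicate 2.

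**Figure D1:**
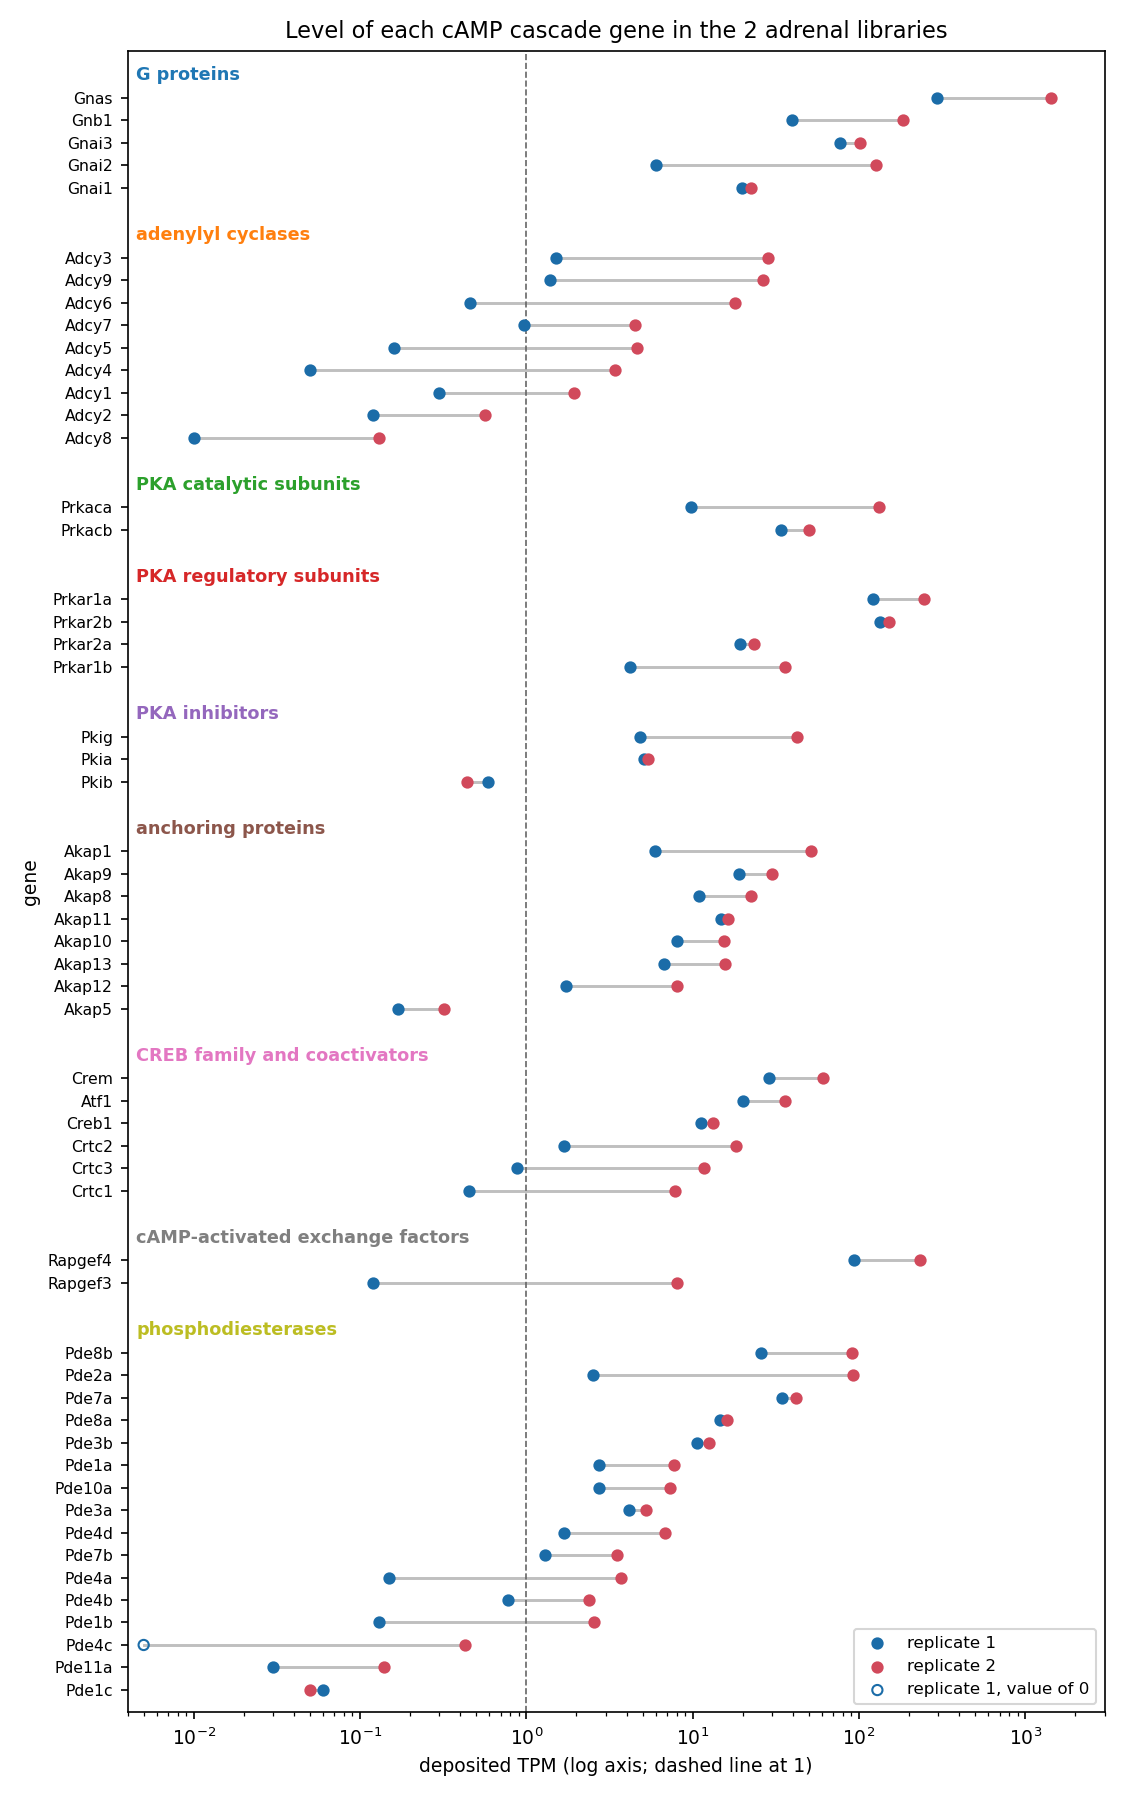
Deposited TPM of each of the 55 genes (log axis) in replicate 1 (blue) and replicate 2 (red), ordered by role and by mean TPM within a role, with a line joining the 2 libraries and a dashed line at 1 TPM. Gnas lies farthest right in both libraries, in replicate 1 all adenylyl cyclases lie to the left of the G proteins and PKA subunits, and Pde4c has a value of 0 in replicate 1, drawn as an open circle at the left edge.

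Among the G proteins, all 5 members were detected in both libraries. Gnas (chr2:174284320-174346744, plus strand, mm10) held 14496 counts and 295 TPM in replicate 1 and 27489 counts and 1428 TPM in replicate 2, a mean of 862 ± 801 TPM (SD, n = 2 libraries). By TPM it ranked 49 and 22 among 43294 nuclear genes. Its count ratio of replicate 2 to replicate 1 was 0.49 on the log2 scale (95% interval 0.46 to 0.52), under the 2-fold minimum of a call. Gnb1, the gene of a beta subunit that holds the alpha subunit in its inactive form, stood at 39.5 and 183 TPM, and its log2 ratio of 0.01 had an adjusted p of 0.872 in the exact binomial test.

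The 3 inhibitory alpha subunits, which lower cyclase activity, did not keep their order between the libraries. Gnai3 stood at 77.0 and 101 TPM (88.8 ± 16.7, SD, n = 2), Gnai2 at 5.98 and 126 TPM (66.0 ± 84.9), and Gnai1 at 19.9 and 22.4 TPM (21.1 ± 1.76). Gnai3 therefore made 74.9% of the inhibitory alpha TPM in replicate 1 and 40.4% in replicate 2, while Gnai2 made 5.82% and 50.6%. By count ratio, Gnai2 was called higher in replicate 2 (log2 ratio 2.87), and Gnai1 (-1.68) and Gnai3 (-1.46) were called lower.

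The Gnas locus makes several products from separate starts, of which that of the Gs alpha transcripts lies downstream of the others. Transcripts that begin between positions 174330006 and 174330287 made 95.8% of the gene's TPM in replicate 1 and 94.0% in replicate 2, and starts upstream of these made 0.14% and 2.98% at 174284320 and 3.64% and 0.73% between 174285256 and 174285358. Within the Gs alpha group the leading transcript differed: Gnas-206 took 92.6% of the gene in replicate 1 and 19.4% in replicate 2, and Gnas-208 took 0% and 56.9%. The share of the Gs alpha starts was thus nearly the same in both libraries, while the split among its transcripts was not.

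The 250 bases before the first of the Gs alpha starts (chr2:174329756-174330005, plus strand, RefSeq promoter table, build GRCm38.p6) are shown because this group of starts carries almost all RNA of the most abundant member. The transcript that begins directly after the window, Gnas-207, held 3.12% and 17.6% of the gene. Gnas-206 and Gnas-208 begin farther downstream, at 174330097 and 174330089. Capitals mark the cAMP response element half-site, searched as TGACG or its reverse complement CGTCA. The sequence is 80.0% G or C.
Gnas: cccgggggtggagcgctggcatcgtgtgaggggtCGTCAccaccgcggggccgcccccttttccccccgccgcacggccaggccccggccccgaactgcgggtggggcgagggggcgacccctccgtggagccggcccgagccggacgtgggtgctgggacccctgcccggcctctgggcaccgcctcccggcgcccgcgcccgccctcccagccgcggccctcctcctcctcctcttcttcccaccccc
A half-site was present in 1 place. It was found in 20.8% of all 32851 windows of 300 bases in the table, and a match is a description, not a bound site.

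Adenylyl cyclases, which make cAMP, had the lowest summed TPM of the 9 roles in replicate 1, and the PKA inhibitors had the lowest in replicate 2. The 9 genes summed to 4.96 TPM in replicate 1 and 87.7 TPM in replicate 2, against 438 and 1860 TPM for the 5 G proteins, and 2 of 9 reached 1 TPM in both libraries. Adcy3, a cyclase also known from olfactory neurons, led with 1.50 and 28.3 TPM (14.9 ± 18.9, SD, n = 2; 116 and 1169 counts). Adcy9, a widely expressed cyclase, followed with 1.39 and 26.5 TPM (13.9 ± 17.7; 197 and 1442 counts). These 2 genes kept places 1 and 2 in both libraries, and their shares of the cyclase TPM hardly moved: 30.2% and 32.2% for Adcy3, 28.0% and 30.2% for Adcy9. The difference between them was small beside the spread of either between libraries. Adcy3-205, a processed transcript of 484 bases, held 47.5% and 23.5% of Adcy3 TPM on 7 and 24.4 counts. Without this transcript Adcy3 would lie below Adcy9 in both libraries, and Adcy9 had more counts in both.

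Adcy6, a cyclase inhibited by calcium, stood at 0.46 and 17.8 TPM and held place 4 in replicate 1 and place 3 in replicate 2. Adcy7 stood at 0.97 and 4.50 TPM and held places 3 and 5, with 19.6% and 5.13% of the cyclase TPM. Adcy5, the close relative of Adcy6, stood at 0.16 and 4.63 TPM, and Adcy4 at 0.05 and 3.39 TPM on 5 and 137 counts. Lower still by mean TPM were the calcium-activated Adcy1 (0.30 and 1.94 TPM), Adcy2 (0.12 and 0.56 TPM) and Adcy8 (0.01 and 0.13 TPM, on 1 and 8 counts, too few for the test). In replicate 1, however, Adcy1 lay above Adcy5 and Adcy4, and Adcy2 above Adcy4. By count ratio 5 of the 8 tested cyclases were called higher in replicate 2, beside 36.5% of all genes tested, and 0 lower, beside 27.7%: Adcy4 (log2 ratio 4.23), Adcy6 (3.43), Adcy5 (2.96), Adcy3 (2.90) and Adcy9 (2.44). With the trend of the ratio over GC content removed, 0 cyclases were called higher and 1, Adcy5, lower. The deposited sources used here do not name how strand entered the counting, and Adcy3 overlaps Cenpo on the opposite strand (1.03 and 6.63 TPM), so part of the Adcy3 counts may belong to that gene.

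PKA is a tetramer of 2 regulatory and 2 catalytic subunits. The catalytic genes were both detected and exchanged places. Prkaca (chr8:83972993-83996443, plus strand), which encodes the catalytic alpha subunit, stood at 9.73 TPM in replicate 1 and 131 TPM in replicate 2 (70.6 ± 86.1, SD, n = 2). Prkacb, the catalytic beta gene, stood at 34.2 and 49.8 TPM (42.0 ± 11.1). Prkaca thus made 22.2% of the catalytic TPM in replicate 1 and 72.5% in replicate 2, and which gene leads depends on the library. By count ratio Prkaca was called higher in replicate 2 (log2 ratio 1.91, 95% interval 1.79 to 2.03) and Prkacb lower (-1.31, interval -1.38 to -1.24). Prkaca has 1 annotated transcript in the tables, so no choice among transcripts enters its value.

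All 4 regulatory genes were detected, and 2 of them carried most of the RNA. Prkar1a (chr11:109649405-109669656, plus strand), the type I alpha subunit whose loss is known to free PKA in adrenal disease, stood at 122 and 246 TPM (184 ± 88.1, SD, n = 2), with ranks 204 and 395 among nuclear genes. Prkar2b, the type II beta subunit, stood at 133 and 151 TPM (142 ± 12.4). Their order turned over: Prkar2b made 47.8% and 33.0% of the regulatory TPM, and Prkar1a 43.8% and 54.0%. Prkar2a stood at 19.1 and 23.4 TPM (21.3 ± 3.04) and Prkar1b at 4.21 and 35.8 TPM (SD 22.3), and these 2 did not differ beyond the spread of Prkar1b. By count ratio Prkar2b was called lower in replicate 2 (log2 ratio -1.64) and Prkar1b higher (1.72), while Prkar1a (-0.82) and Prkar2a (-0.65) were not called. Summed regulatory TPM was 278 and 456, against 43.9 and 181 for the catalytic genes, and exceeded it in both libraries.

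Prkar1a was the only one of the 45 members with a promoter entry whose window held the full cAMP response element, TGACGTCA, a palindrome that reads the same on both strands and contains the half-site. The element was in 2 of the 91 windows of these members (2.20%) and in 1.79% of all windows in the table. It lies at chr11:109650900-109650907, in the introns of Prkar1a-202, Prkar1a-203 and Prkar1a-204, and 13 bases lie between its end and the start of Prkar1a-201 at 109650921. Transcripts from this start region (109650575 to 109650921) made 99.1% of Prkar1a TPM in replicate 1 and 80.5% in replicate 2. The start farther upstream, at 109649405, made 0.15% and 19.0%, most of it Prkar1a-203. Both upstream windows are shown, with the element and its half-sites in capitals, because these starts account for nearly all Prkar1a RNA and differ in base composition, at 61.6% G or C for the first (chr11:109650699-109650948) and 40.4% for the second (chr11:109649113-109649362), both on the plus strand.
Prkar1a downstream start: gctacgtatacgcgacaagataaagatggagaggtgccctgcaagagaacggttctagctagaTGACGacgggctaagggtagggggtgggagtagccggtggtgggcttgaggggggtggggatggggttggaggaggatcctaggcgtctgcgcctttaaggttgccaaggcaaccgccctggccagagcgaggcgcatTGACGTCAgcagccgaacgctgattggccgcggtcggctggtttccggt
Prkar1a upstream start: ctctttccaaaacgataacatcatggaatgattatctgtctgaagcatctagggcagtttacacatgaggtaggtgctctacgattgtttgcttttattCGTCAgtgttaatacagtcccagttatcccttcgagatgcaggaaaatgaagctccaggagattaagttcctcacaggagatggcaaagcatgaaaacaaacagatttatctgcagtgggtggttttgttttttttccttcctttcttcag
At least 1 half-site was in the windows of 20 of these 45 members (44.4%), against 23.0% of the 27025 symbols in the table. Members had more windows per gene, and by window the shares were 26.4% and 20.8%.

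The PKA inhibitors, small proteins that block the catalytic subunit, were low. Pkig stood at 4.84 and 42.2 TPM (23.5 ± 26.4, SD, n = 2) and was called higher in replicate 2 (log2 ratio 1.51). Pkia stood at 5.10 and 5.38 TPM (5.24 ± 0.198) and Pkib at 0.59 and 0.44 TPM on 39 and 11 counts, and both were called lower (-2.00 and -2.20). For Pkia the TPM was nearly equal in the libraries while the scaled count was 4.01-fold lower in replicate 2.

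Anchoring proteins hold PKA near its substrates. Of 8 members, 7 were detected in both libraries. Akap1, which anchors PKA to mitochondria, stood at 5.96 and 51.6 TPM (28.8 ± 32.3, SD, n = 2). Akap9, an anchor at the centrosome and Golgi, stood at 19.0 and 29.8 TPM (24.4 ± 7.64), and Akap8, a nuclear anchor, at 10.8 and 22.4 TPM (16.6 ± 8.17). Akap11 (14.8 and 16.3 TPM), Akap10 (7.99 and 15.3 TPM) and Akap13 (6.73 and 15.5 TPM) lay within the same range, Akap12 was lower (1.72 and 8.03 TPM), and Akap5 was at 0.17 and 0.32 TPM. Akap9 led in replicate 1 with 28.3% of the summed TPM of the role, and Akap1 led in replicate 2 with 32.4%, so no leader can be named. Akap1 was called higher in replicate 2 (log2 ratio 1.22), and Akap9 (-1.04) and Akap11 (-1.71) were called lower. Akap9 overlaps the sterol gene Cyp51 on the opposite strand (19.7 and 29.6 TPM), and their reads may not have been told apart. Akap9-208, a transcript of 718 bases annotated as nonsense-mediated decay, held 45.8% and 33.1% of Akap9 TPM on 153 and 65.0 counts. Without this transcript Akap9 would lie below Akap11 in replicate 1.

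Of the CREB family, Crem, whose products include both activators and cAMP-induced repressors, was the most abundant in both libraries with 28.7 and 61.1 TPM (44.9 ± 22.9, SD, n = 2). Atf1 stood at 19.99 and 36.0 TPM (28.0 ± 11.3) and Creb1 at 11.2 and 13.3 TPM (12.3 ± 1.50). The order Crem, Atf1, Creb1 was the same in both libraries, although the spread of Crem and Atf1 overlaps. All 3 were called lower in replicate 2 by count (log2 ratios -1.37, -1.38 and -1.95 in that order), beside 27.7% of all genes tested. The estimated assignment of Crem TPM to starts differed between the 2 libraries of this 1 sample. The most upstream group of starts made 53.9% of Crem TPM in replicate 1 and 7.08% in replicate 2, and the 2 most downstream groups together rose from 35.0% to 84.5%. These shares are spread over 39 annotated transcripts on 1276 and 666 counts, and no error could be given for them.

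The CREB coactivators Crtc1, Crtc2 and Crtc3, which enter the nucleus when cAMP rises, showed the opposite direction before the GC trend was removed. Crtc2 stood at 1.68 and 18.2 TPM, Crtc3 at 0.88 and 11.6 TPM and Crtc1 at 0.45 and 7.86 TPM. All 3 were called higher in replicate 2 (log2 ratios 3.18, 2.03 and 4.23 in that order), beside 36.5% of all genes tested. In replicate 1 each lay below the lowest of the 3 CREB factors, and in replicate 2 Crtc2 lay above Creb1.

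The exchange factors, which let cAMP activate the small GTPase Rap without PKA, were nearly all Rapgef4. Rapgef4 (chr2:71981240-72257474, plus strand), also called Epac2, stood at 93.4 and 233 TPM (163 ± 99.0, SD, n = 2) and ranked 293 and 419 among nuclear genes. Rapgef3, also called Epac1, stood at 0.12 and 8.08 TPM on 5 and 264 counts. Rapgef4 exceeded Rapgef3 by 778 times in replicate 1 and 28.9 times in replicate 2, and by 135 and 166 times with the GC trend split between the libraries. These values include Rapgef4-210, a processed transcript that begins inside the gene, with 71.3% and 52.5% of Rapgef4 TPM. The coding Rapgef4-201 stood at 3.65 and 13.0 TPM and the coding Rapgef4-202 at 1.72 and 22.6 TPM. Rapgef3 was called higher in replicate 2 with the largest ratio of any member (log2 ratio 5.17, 95% interval 4.05 to 6.92), and Rapgef4 was not called (-0.64).

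The phosphodiesterases were the largest role, with 16 members, of which 10 were detected in both libraries. Pde8b (chr13:95024454-95250336, minus strand), a cAMP-specific enzyme of high affinity known from adrenal cortex, had the highest mean, with 25.7 and 90.7 TPM (58.2 ± 46.0, SD, n = 2). It held place 2 in both libraries and made 25.2% and 31.0% of the phosphodiesterase TPM. Pde2a, which cGMP activates, stood at 2.53 and 91.9 TPM (47.2 ± 63.2), place 8 in replicate 1 and place 1 in replicate 2. Pde7a, a cAMP-specific enzyme, stood at 34.6 and 41.5 TPM (38.0 ± 4.89), place 1 and place 3. Pde7a-205, a processed transcript of 605 bases, held 29.7% and 12.8% of Pde7a TPM on 142 and 27.4 counts. Without this transcript Pde7a would lie below Pde8b in replicate 1. The coding Pde7a-201 and Pde7a-202 stood at 3.75 and 9.47 TPM in that library. The 3 leading means did not differ beyond the spread between libraries, and Pde8b and Pde2a were nearly equal in replicate 2.

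The row used for Pde2a carries a gene ID that the reference names Gm45837, a locus that overlaps Pde2a (chr7:101421691-101512827, plus strand) and begins upstream of it. Its transcript Gm45837-201, which starts at 101410886 and made 100% and 90.9% of the row, matched a Pde2a transcript at 100% identity over 3957 of 4139 bases, and the value is uncertain for that reason. Without this row Pde8b made 35.5% of the phosphodiesterase TPM on average, against 28.1% with it.

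Behind these came Pde8a, the relative of Pde8b, at 14.7 and 15.99 TPM, and Pde3b, which cGMP inhibits, at 10.6 and 12.6 TPM. Pde8b exceeded Pde8a by 1.75 times in replicate 1 and 5.67 times in replicate 2. In replicate 1, however, Pde8a-202, a processed transcript of 583 bases, held 56.4% of Pde8a TPM on 109 of 860 counts. It held 0% in replicate 2. Pde1a (2.73 and 7.67 TPM), Pde10a (2.73 and 7.29 TPM), Pde3a (4.16 and 5.22 TPM), Pde4d (1.69 and 6.82 TPM) and Pde7b (1.30 and 3.51 TPM) were detected in both libraries at a lower level. Pde4b (0.77 and 2.38 TPM), Pde4a (0.15 and 3.70 TPM) and Pde1b (0.13 and 2.55 TPM) passed 1 TPM in replicate 2 only. The 4 genes of the PDE4 group, the rolipram-sensitive enzymes, were all below 7 TPM. Pde4c had 0 and 17 counts, where a count of 0 allows up to 3, Pde1c had 14 and 5, and Pde11a, whose human gene is linked to adrenal disease, had 2 and 5 counts. None of these 3 entered the test.

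By count ratio 3 of the 13 tested phosphodiesterases were called higher in replicate 2, beside 36.5% of all genes tested. They were Pde2a (log2 ratio 3.33), Pde4a (2.59) and Pde1b (2.40). The 4 called lower, beside 27.7% of all genes, were Pde3b (-1.86), Pde3a (-1.52), Pde7a (-1.22) and Pde1a (-1.12). Pde8b was not called at 0.28 (95% interval 0.19 to 0.37). With the GC trend removed, 0 phosphodiesterases were called in either direction, beside 11.5% of genes higher and 11.2% lower.

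Pde8b RNA begins in 2 annotated regions at the 5′ end. Transcripts that begin between 95250274 and 95250336 made 29.5% of the gene's TPM in replicate 1 and 52.8% in replicate 2, and those between 95222813 and 95223555 made 10.5% and 20.5%. Outside these regions, Pde8b-211, a transcript that begins near the 3′ end at 95034253, took 55.9% and 12.5%, and Pde8b-213, which begins at 95046066, took 0% and 11.04%. The order of the 5′ regions was the same in both libraries. Their upstream sequences are shown because they precede the 5′ starts of the leading phosphodiesterase and differ in composition, at 54.4% G or C for the first (chr13:95250337-95250586) and 77.6% for the second (chr13:95223051-95223300), both read on the minus strand. Neither holds a half-site, so there are no capitals, which says only that these letters are absent from the 250 bases.
Pde8b first region: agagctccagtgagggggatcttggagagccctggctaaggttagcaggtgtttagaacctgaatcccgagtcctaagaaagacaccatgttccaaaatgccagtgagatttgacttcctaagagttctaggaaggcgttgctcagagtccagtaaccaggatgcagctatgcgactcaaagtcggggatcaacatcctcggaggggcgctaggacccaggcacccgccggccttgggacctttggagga
Pde8b second region: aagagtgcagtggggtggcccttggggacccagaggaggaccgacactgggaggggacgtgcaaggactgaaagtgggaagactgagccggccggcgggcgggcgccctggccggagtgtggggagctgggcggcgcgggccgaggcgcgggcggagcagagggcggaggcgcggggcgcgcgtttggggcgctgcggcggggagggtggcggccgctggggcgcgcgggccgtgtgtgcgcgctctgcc

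Over all roles, 51 members had a summed count of at least 20 and were tested between the libraries. A gene was called at a 2-fold difference or more and an adjusted p under 0.05 in a two-sided exact binomial test, which compares the 2 libraries and not conditions. Of the 51, 17 were called higher in replicate 2, beside a background of 36.5% of the 14358 genes tested, and 15 were called lower, beside 27.7%. These shares lie near the background, and the members' median log2 ratio was -0.10, against 0.10 for all tested genes. Scaling by total counts moved the median of all genes to 1.24, and the split over all genes moved from 5236 higher and 3981 lower to 7765 higher and 572 lower. For the members it then stood at 26 higher and 1 lower, so each direction given here is relative to TMM scaling.

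Direction followed base composition. The 17 members called higher had a GC content of 53.4% to 59.5%, and the 15 called lower had 40.3% to 46.0%, with no overlap. The same ranges over all called genes were not taken. The trend over all tested genes passed from -1.06 at 45% GC to 1.33 at 53%, so a 2-fold minimum divides any genes on it by GC content. Some members not called also lay within these ranges, such as Gnas (55.1%), Akap5 (44.0%) and Prkar1a (45.9%). Across the 51 members the log2 ratio rose with GC content with a Spearman coefficient of 0.96, and across 14317 tested genes with one of 0.90. These are descriptions across genes, which share the same 2 libraries, and no p is attached.

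With the GC trend of all genes taken out by a loess curve, 0 members were called higher, beside 11.5% of genes, and 4 were called lower, beside 11.2%. At an unadjusted p under 0.05 in the exact binomial test, with no fold minimum, 9 members had a ratio above 0, beside 29.5% of genes, and 21 a ratio below 0, beside 32.9%. Of the 32 calls made before, 29 ended, 3 turned to the other direction, and none kept its direction. The 4 called lower were Gnas (log2 ratio -1.88, 95% interval -1.91 to -1.85), Pkig (-1.61), Adcy5 (-1.51) and Crtc3 (-1.27), of which Pkig, Adcy5 and Crtc3 had been called higher. With a trend over transcript length removed as well, Gnas (-2.13) and Pkig (-2.07) were still called lower, while Adcy5 (-0.38) and Crtc3 (-0.60) were not, and Adcy4 (1.51), Adcy6 (1.60) and Pde2a (1.34) were called higher. Intervals cover counting error only.

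A ratio of less than 1.5-fold was found for 38 of 51 members (74.5%), against 56.9% of all tested genes, and the median size of the log2 ratio fell from 1.38 to 0.32 for the members and from 1.41 to 0.48 for all genes. Pde8b stood at 0.03 (adjusted p = 0.587, exact binomial test), Prkar2b at -0.04 (0.157), Crem at 0.04 (0.72) and Pde7a at -0.02 (0.734). Gnai2, at 2.87 before, stood at -0.15, Prkaca at -0.35 and Prkacb at -0.32. Members farthest above 0 were Adcy4 (1.20), Pde2a (0.97), Rapgef3 (0.97), Adcy6 (0.89) and Adcy3 (0.71), none of which was called with only the GC trend removed.

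**Figure D2:**
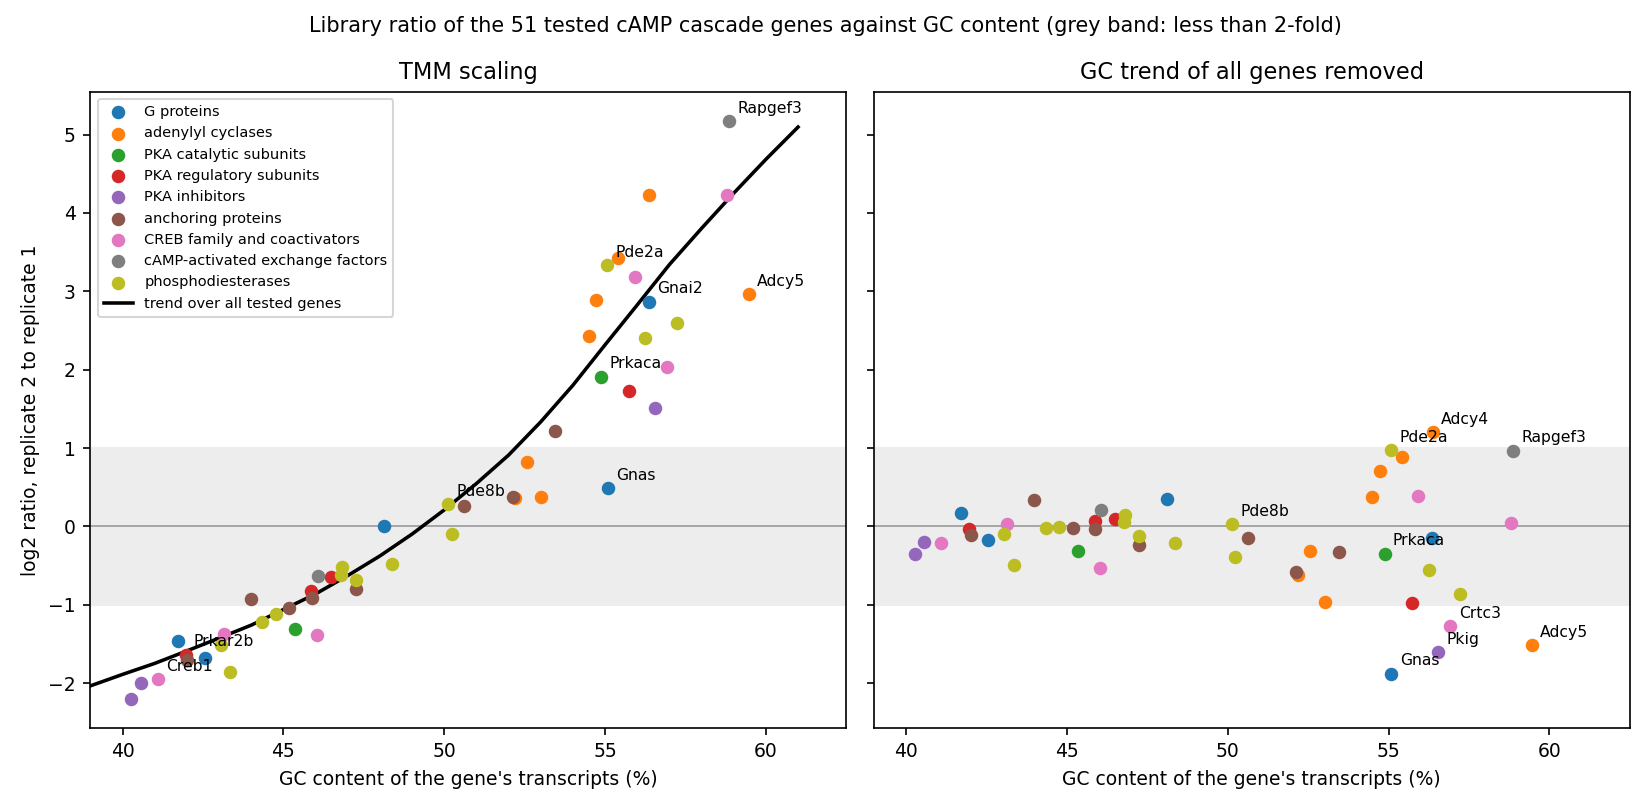
Log2 ratio of replicate 2 to replicate 1 (vertical axis) against GC content in percent (horizontal axis) for the 51 tested genes, coloured by role, after TMM scaling (left, with the trend of all tested genes as a black line) and with that trend removed (right); the grey band spans less than 2-fold. The members climb along the trend on the left, and on the right 4 of them, Gnas, Pkig, Adcy5 and Crtc3, were called lower.

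Family make-up was recomputed with the same trend split evenly between the libraries. Prkaca then made 46.8% of the catalytic TPM in replicate 1 and 46.1% in replicate 2, where the deposited TPM gave 22.2% and 72.5%. Gnai3 made 60.2% and 68.4% of the inhibitory alpha TPM, and Prkar1a 46.8% and 52.2% of the regulatory TPM. Pde8b made 32.4% and 30.8% of the phosphodiesterase TPM and Pde7a 26.4% and 23.2%, and Adcy3 and Adcy9 kept places 1 and 2. For the shares given here the libraries lay closer to each other on this scale. Others moved apart: Gnas made 67.5% and 76.8% of the G protein TPM as deposited and 86.2% and 57.4% with the trend removed. Crem moved from 45.6% and 41.2% of the TPM of its role to 36.9% and 53.9%. Which gene leads is set by the even split: giving the whole trend to 1 library would leave the leader of the other. The trend was fitted on all genes, these included.

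**Figure D3:**
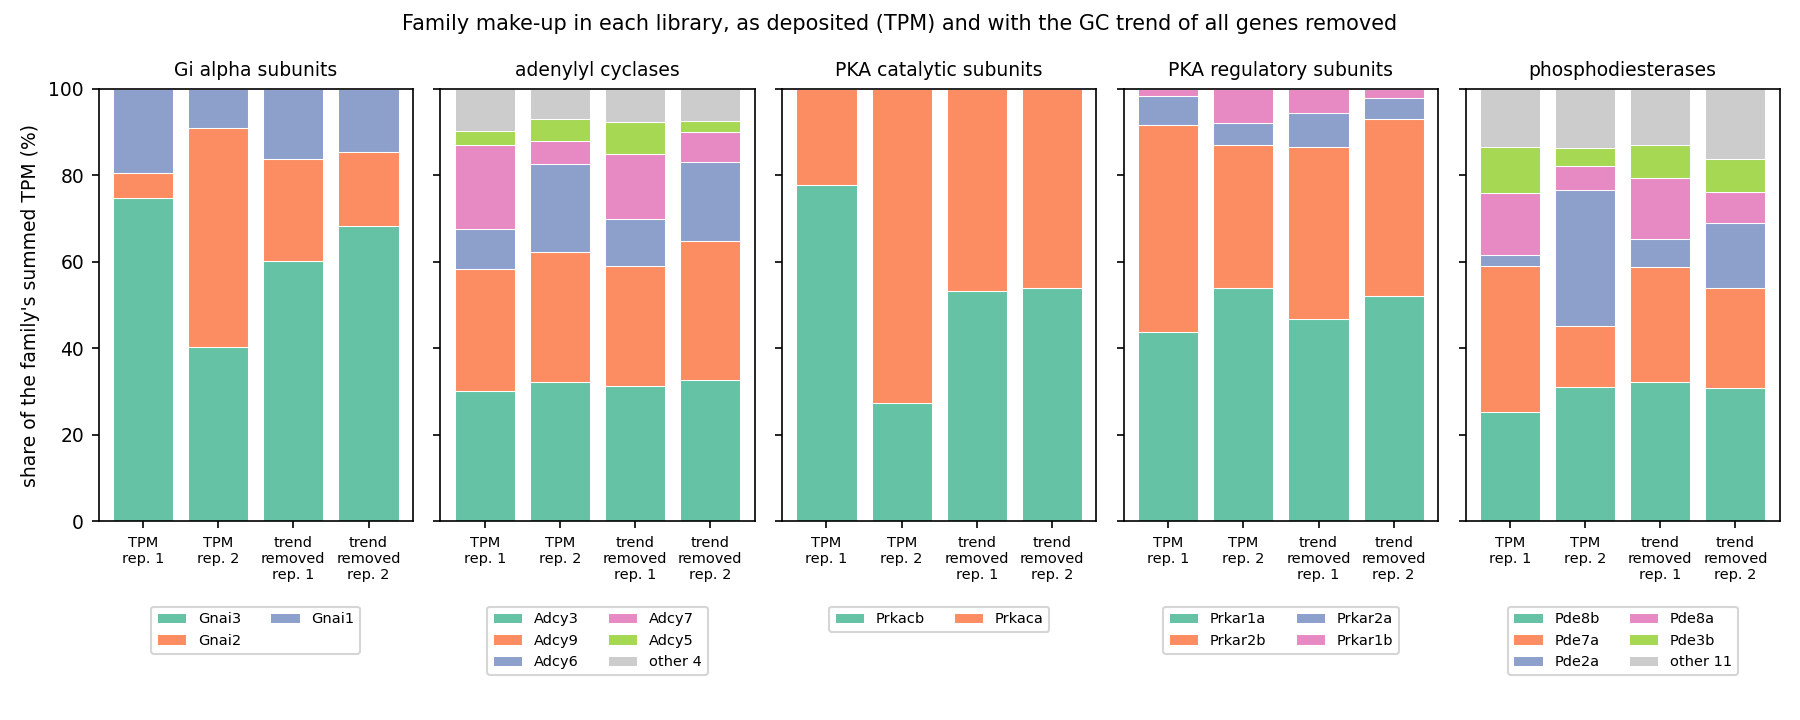
Share of each family's summed TPM in percent (stacked bars, vertical axis from 0 to 100) by gene for 5 families, in replicate 1 and replicate 2 as deposited and with the GC trend removed. Prkaca moves from 22.2% to 72.5% in the deposited TPM and lies at 46.8% and 46.1% with the trend removed, while Adcy3 and Adcy9 hardly change.

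Transcript shares within a gene were compared for the 37 detected members. Of these, 6 had 1 annotated transcript, and among the other 31 the leading transcript was the same in both libraries for 14 and different for 17. Of the 17, the leading transcript of replicate 2 had the higher GC content in 13 of the 16 with a known sequence in the reference and was the longer in 15. The same counts over all genes were not taken, so these cannot be read as a trait of the members. In Gnai2 the lead passed from Gnai2-202 (92.1% and 18.0% of the gene) to Gnai2-201 (1.62% and 79.6%). Adcy9 moved from Adcy9-201 (100% and 0.05%) to Adcy9-202 (0% and 89.4%), and Akap1 from Akap1-202 (98.8% and 0.71%) to Akap1-201 (0% and 91.6%).

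In PKA genes, Prkar2b moved from Prkar2b-203 (97.7% and 33.2%) to Prkar2b-202 (1.48% and 60.5%), Prkar2a from the short Prkar2a-202 (59.0% and 15.0%) to Prkar2a-201 (41.0% and 85.0%), Prkar1b from Prkar1b-202 (68.8% and 0%) to Prkar1b-201 (0% and 100%), and Pkig from Pkig-209 (75.5% and 11.02%) to Pkig-201 (0% and 55.3%). Prkar1a kept Prkar1a-201 in the lead, with 97.3% and 78.9%. Gnb1 passed from Gnb1-208 (67.7% and 21.6%) to Gnb1-201 (31.2% and 29.4%), and Crtc2 from the retained-intron Crtc2-204 (50.1% and 2.29%) to the coding Crtc2-201 (0% and 55.9%). Crem passed from Crem-220 (34.9% and 0%) to Crem-218 (1.66% and 20.2%). For Akap13 the leading transcripts (36.9% and 10.8% for the leader of replicate 1, 24.8% and 64.2% for that of replicate 2) have no name in the reference release.

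Among phosphodiesterases, Pde8b passed from Pde8b-211 (55.9% and 12.5%) to Pde8b-207 (14.8% and 38.3%), Pde8a from the short Pde8a-202 (56.4% and 0%) to Pde8a-201 (42.5% and 100%), and Pde10a from Pde10a-205 (81.9% and 8.88%) to Pde10a-202 (17.8% and 83.9%). Pde7a passed from Pde7a-205 (29.7% and 12.8%) to Pde7a-202 (27.4% and 28.5%), and Pde1a from Pde1a-206 (49.0% and 0%) to Pde1a-209 (30.5% and 55.1%). With 2 libraries these shares have no test, and they are the deposited estimates.

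**Figure D4:**
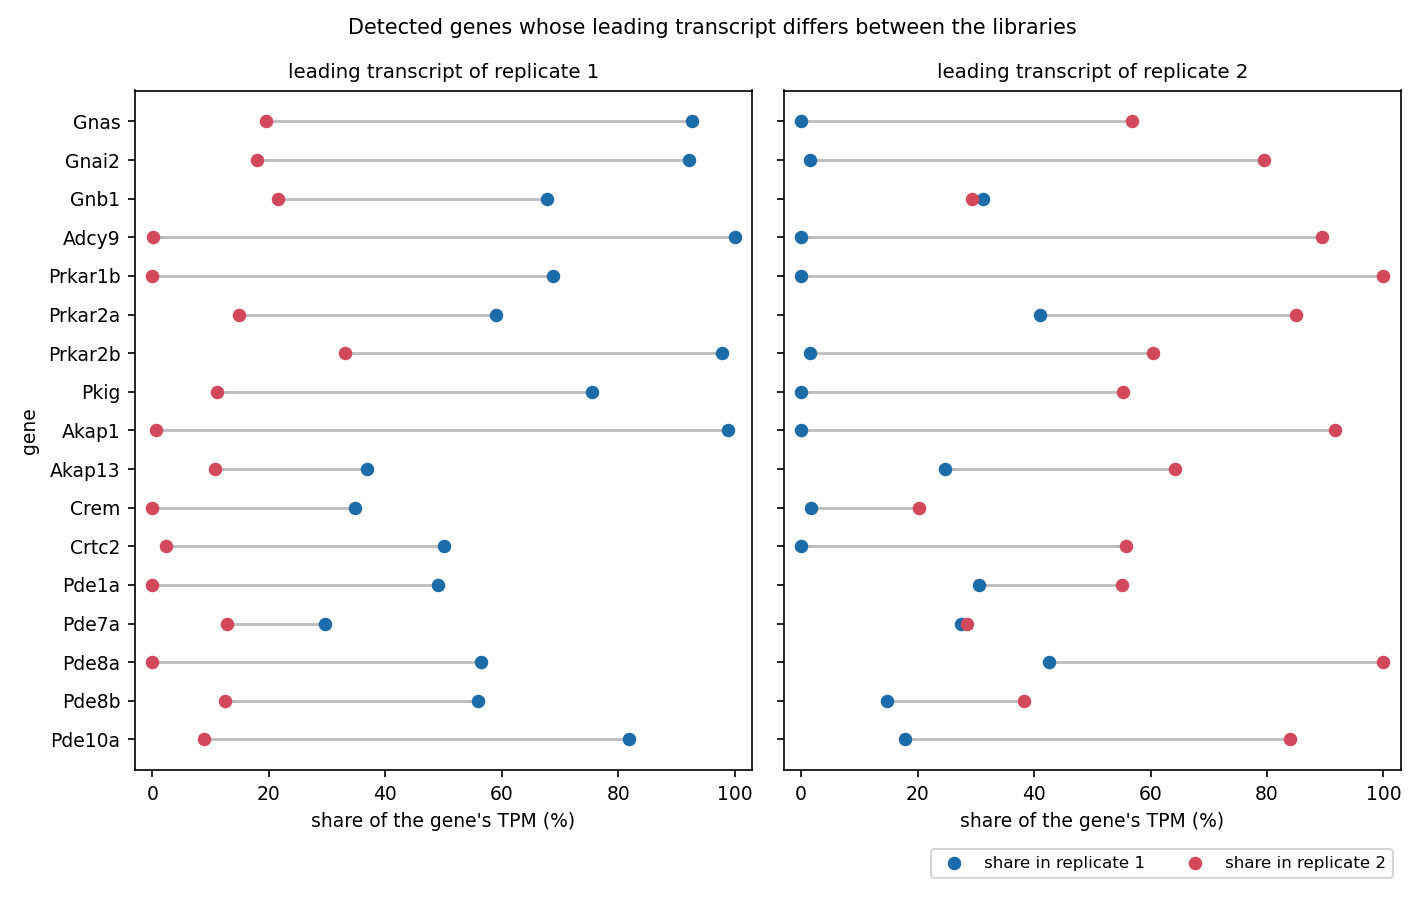
Share of a gene's TPM in percent (horizontal axis) taken by the transcript that led in replicate 1 (left) and by the one that led in replicate 2 (right), for the 17 detected genes whose leader differed; blue points are replicate 1 and red points replicate 2. In Adcy9, Prkar1b, Akap1 and Pde8a the leader of 1 library was at or near 0% in the other.

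As background for the lists below, 36.5% of all genes tested were called higher in replicate 2 and 27.7% lower. With the GC trend removed these shares were 11.5% and 11.2%. Upstream of the cascade, 3 of 18 receptors coupled to Gs were detected in both libraries. Mc2r, the ACTH receptor, exceeded all others with 245 and 351 TPM (298 ± 74.6, SD, n = 2), and Adcyap1r1, the receptor for the chromaffin cell peptide PACAP, followed with 2.72 and 23.1 TPM. In this list 3 of 9 tested genes were called higher and 1 lower, with a median log2 ratio of -0.11, and 0 and 3 with the GC trend removed. The largest called ratios were those of Pth1r (log2 ratio 6.20, on 1 and 141 counts) and Mc2r (-1.33). Of 10 receptors coupled to Gi, 4 were detected, led by the adenosine receptor Adora1 (18.9 and 144 TPM) and the sphingosine phosphate receptor S1pr1 (10.2 and 16.8 TPM). Of 6 tested, 3 were called higher and 2 lower, and 0 and 2 without the trend. Drd2 (1.93, on only 3 and 17 counts) and S1pr1 (-1.13, on 962 and 594 counts) had the largest called ratios.

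Of 19 other G protein subunits and their chaperones, 13 were detected, and 6 were called in each direction, or 3 higher and 6 lower without the trend. Gng5 led with 183 and 238 TPM. Gnb2 came next with 0.21 and 298 TPM on 8 and 3644 counts, and its log2 ratio of 8.32 (3.69 without the trend) was the largest of the list. Gng2 had the lowest called ratio (-1.71). Gnb2 in replicate 2 exceeded the member Gnb1 (183 TPM), and in replicate 1 lay far below it.

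Other anchoring proteins were led by Akap2 (49.8 and 93.1 TPM) and Akap7 (21.6 and 20.9 TPM), with 7 of 11 detected, 1 of 8 tested called higher (Akap8l, 1.57) and 2 lower (lowest, Akap7, -1.75), and none in either direction without the trend. Other phosphodiesterases were led by the cGMP-specific Pde5a (23.7 and 28.0 TPM) and by Pde6d (4.90 and 26.4 TPM), a prenyl-binding chaperone. Of this list 3 of 9 were detected, 1 was called higher (Pde6d, 1.08) and 2 lower (lowest, Pde12, -1.63), and none without the trend.

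Among 8 CREB regulators 7 were detected, led by Nono (61.9 and 134 TPM) and the kinase Sik2 (7.72 and 26.4 TPM). Sik3 (1.80) and Creb5 (-1.60) had the largest called ratios, with 2 higher and 1 lower, and 0 and 3 without the trend. Other cAMP effectors were led by the GTPases Rap1b (129 and 108 TPM) and Rap1a (92.2 and 69.2 TPM), the targets of the exchange factors. Of 10 tested, 4 were called in each direction and none without the trend. The extremes were Hcn2, a channel gated by cAMP with 0 and 124 counts, where the 0 allows up to 3 counts, and Rap1a (-2.26).

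Of 13 genes known to be induced by cAMP, 9 were detected in both libraries, led by Star, the cholesterol carrier of steroid synthesis, with 1953 and 5390 TPM, and Rgs2 with 105 and 131 TPM. In this list 5 of 12 tested genes were called higher and 3 lower, with a median log2 ratio of 0.55, and 1 and 3 without the trend, with a median of -0.40. The extremes were Junb (5.87, on 9 and 743 counts) and Nr4a3 (-1.24). With 1 group of samples, no level in these lists can be tied to the activity of the cascade.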

How the data were processed

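The data are 2 polyA RNA-seq libraries of 1 mouse adrenal sample. For each, gene and transcript values were read from the tables as deposited: the expected count, an estimate of fragments that was rounded here, and the TPM. FPKM, so named per the file headers, and the deposited posterior mean TPM, handled as a score, served as alternatives. The transcript's part of its gene is a percent in the deposited transcript tables. The deposited notes name mm10 and GENCODE M4. Aligner, counter, versions and strand setting: not given in the sources used here.

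Members and lists were chosen with earlier results of these data known. Names, coordinates, transcripts and GC content came from GENCODE M21 and promoters from RefSeq, where 45 of 55 members were matched. Genes whose counts summed to 20 or more were compared between libraries after TMM scaling (edgeR 4.0.16, R 4.3.3) by a two-sided exact binomial test, with Benjamini-Hochberg adjustment over all of them, and called at adjusted p under 0.05 and at least 2-fold. A log2 ratio sets replicate 2 over replicate 1, and its 95% interval covers counting error only. For the ratio each count was raised in proportion to the scaled library size, by 0.5 on average. GC content of a gene was weighted by transcript TPM, and its trend fitted by loess (span 0.3). The comparison was tested on simulated data. Detection needed 1 TPM. Copies were near-identical at 95% identity over 50% of the length (BLAST 2.17.0). In each role the 3 members of highest mean TPM and all called members were named with values, and in each other list the 2 highest and the largest called ratio in each direction. Further alternatives were median-of-ratios, total-count and nuclear TMM scaling, other count filters, a 4-fold minimum, length trends and each library alone. GC content over all annotated transcripts and omission of the Pde2a row were added after seeing the data.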

Additional observations from a re-analysis of the deposited data

How the results depend on the processing

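The number of members detected in both libraries stayed within 1.5 times of 37 under every alternative run (36 to 48), the range without 1 library being 37 to 48. Calls were steady under median-of-ratios and nuclear TMM scaling and the 2 count filters. Members called higher numbered 26 with total-count scaling, 0 with the GC trend removed, 3 with GC and length trends removed and 1 with GC content over all annotated transcripts, against 17. Members called lower numbered 1, 4, 2 and 5 in that order and 2 at a 4-fold minimum, against 15. The mean share of Adcy3 among cyclases was 33.8% with posterior mean TPM, against 31.2%, and that of Pde8b 35.5% without the Pde2a row, against 28.1%. Shares without 1 library ran from 30.2% to 32.2% for Adcy3, from 43.8% to 54.0% for Prkar1a, from 22.2% to 72.5% for Prkaca and from 25.2% to 31.0% for Pde8b. Same leading transcripts numbered 35, against 20 (single-transcript genes included), when every member with at least 1 count in both libraries entered, since more members were compared.

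Listed here are log2 ratios that had been called and changed sign, and ratios that had not been called and were called in the opposite direction. Uncalled ratios that changed sign without a call are left out. The listed ones were, with the GC trend removed, Gnas -1.88, Gnai2 -0.15, Gnai3 0.18, Adcy5 -1.51, Prkaca -0.35, Prkar1b -0.98, Pkig -1.61, Akap1 -0.32, Crem 0.0353, Crtc3 -1.27, Pde1b -0.56, Pde4a -0.86; with GC and length trends removed, Gnas -2.13, Gnai2 -0.25, Gnai3 0.18, Adcy5 -0.38, Prkaca -0.39, Prkar1b -0.98, Pkig -2.07, Akap1 -0.19, Akap9 0.0444, Crtc3 -0.60, Pde1b -0.37, Pde4a -0.27; with GC content over all annotated transcripts, Gnas -3.28, Gnai2 -0.0955, Gnai3 0.19, Adcy3 -0.0663, Adcy5 -1.43, Adcy7 -1.04, Adcy9 -0.0348, Prkar1b -0.68, Pkig -1.89, Akap1 -0.43, Akap9 0.0475, Akap11 0.00189, Pde1a 0.38, Pde4a -0.68; with total-count scaling, Akap9 0.0918, Pde1a 0.0139, Pde4d 1.03; and with the length trend removed, Pkig -0.0107. The cause of the GC trend was not tested.

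Depth limits Adcy8, Pde1c, Pde4c and Pde11a, whose counts sum to under 20. With 2 libraries of 1 sample, nothing here bears on other animals, and library and preparation date cannot be told apart.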

Other observations

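Rapgef4 RNA was spread over several starts. Rapgef4-210, annotated as a processed transcript with its start at 72179693, made 71.3% of the gene's TPM in replicate 1 and 52.5% in replicate 2, and the starts at 72140711 to 72140728 made 18.5% and 30.9%. The most upstream starts (71981240 to 71981287) made 1.84% and 9.77%, and the starts at 72054604 to 72054985 made 4.04% and 5.56%. In both libraries most of the Rapgef4 TPM was therefore assigned to transcripts that begin well inside the gene, downstream of the first exons of the long coding transcripts, and the TPM of Rapgef4 given above is mostly theirs. By counts, Rapgef4-210 held 7407 of 8476 and 5123 of 7351.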
